A study of Mus musculus with 2148 samples.

Results

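The tryptase and Prss29 gene cluster is a row of 6 serine protease genes, Prss34, Prss28, Prss29, Tpsab1, Tpsb2 and Tpsg1, that lie side by side on mouse chromosome 17. These 6 of the 48437 genes of the count table were picked by symbol, because earlier analysis of the same cells had shown them to be expressed together in single adult and newborn mTEChi and to be low in Aire-KO mTEChi. Co-expression in mTEChi and the difference between Aire-KO and WT mTEChi are therefore given as descriptions with no test. The levels in mTEChi also entered that choice, so mTEChi against mTEClo is described as well and supports nothing about the members. The tests are kept for newborn against adult mTEClo and Aire-KO against WT mTEClo. Newborn against adult mTEChi is a description too, since the genes were chosen in mTEChi of both ages. The same holds where that age effect is set against the one in mTEClo.

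The cells were thymic epithelial cells (TECs) of C57BL/6 mice, profiled 1 by 1 with RamDA-seq, which reads total RNA along its full length. All had been sorted as live CD45- EpCAM+ cells. Medullary cells (mTEC, Ly51-) were split into mTEChi and mTEClo by high or low surface MHC-II, and Ly51+ cells were taken as cortical (cTEC). Adult WT mTEChi came from 4 mouse pools, here all cells of a group that share an age and sex label: 4-week-old males (pool 1, 71.6% of the group's 620 cells), 5-week-old males (pool 2, 12 cells), 6-week-old males (pool 3, 82 cells) and 4-week-old females (pool 4, 82 cells). Adult WT mTEClo came from 3 pools of males, at 8 weeks (pool 1, 60.8% of the group's cells), 5 weeks (pool 2, 74 cells) and 4 weeks (pool 3, 66 cells). The remaining groups had 1 pool each. These were mTEChi and mTEClo of 5-week-old male mice lacking Aire (Aire-KO; 17.1% and 7.78% of the cells of the series), 77 cTECs of 6-week-old WT males, and mTEChi, mTEClo and cTECs of WT mice at 1 day, whose sex is not recorded (8.64%, 6.26% and 7.02% of all cells). The labels do not number the mice, so a pool may hold several animals, and p-values measure the spread between pools only. A cell had a median of 692880 deduplicated reads (203010 to 1823784), and pools held from 7990398 reads (adult WT mTEChi pool 2) to 351545799 reads. Aire was at 1193.3 CPM (reads of a gene per 1000000 reads on all genes, here summed over cells) in adult WT mTEChi, 1469.3 CPM in newborn mTEChi, 35.4 in adult WT mTEClo and 26.1 in Aire-KO mTEChi.

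Medullary TECs transcribe many genes that are otherwise restricted to peripheral tissues, so that developing T cells meet those self antigens before they leave the thymus. Aire, a nuclear protein of mature mTECs, is needed for a large share of this transcription, and each of its target genes is found in only a small fraction of cells. The proteases of the cluster are secreted or membrane-bound trypsin-like enzymes whose usual sites lie far from thymic epithelium: mast cells and basophils for the tryptases and for Prss34, and the uterus around implantation for Prss28 and Prss29.

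Prss34 (ENSMUSG00000056399) occupies bases 25298394 to 25300165 of chromosome 17 (GRCm38) and encodes mast cell protease 11 of basophils. Prss28 (ENSMUSG00000024171, 25308646 to 25311876) and Prss29 (ENSMUSG00000034039, 25318654 to 25322684) encode the implantation serine proteases Isp1 and Isp2. Tpsab1 (ENSMUSG00000024173, 25343245 to 25345562) encodes the mast cell tryptase mMCP-7. It is the only member on the minus strand, and RefSeq lists it as a transcribed pseudogene whereas GENCODE lists it as protein coding. Tpsb2 (ENSMUSG00000033825, 25366305 to 25369098) encodes the mast cell tryptase mMCP-6, and Tpsg1 (ENSMUSG00000033200, 25369273 to 25374442) encodes a tryptase anchored in the membrane. The span from Prss34 to Tpsg1 is 76049 bases. Between neighbours lie 8.48, 6.78, 20.56, 20.74 and 0.174 kb in that order. The row is divided here by gene name into 3 Prss genes and 3 tryptase genes. The spacing does not set this division, since Tpsab1 lies no closer to Tpsb2 (20.74 kb) than to Prss29 (20.56 kb). Along their transcripts the members were 60.7% to 75.7% identical by pair, highest for Tpsab1 and Tpsb2, and no stretch of 50 bases, the length to which reads were trimmed where necessary, was shared between any of the 6. The last 0.158 kb of Tpsg1 overlap the end of Cacna1h, a calcium channel gene on the opposite strand, and 7.60% of the 50-base windows of Tpsg1 are also in Cacna1h transcripts. Counting ignored strand, so reads in that overlap cannot be assigned to either gene.

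The sequences upstream of the start sites are shown because the genes move together across cells and their promoters can be set side by side. RefSeq promoters (GRCm38.p6, plus strand) with the same start as the annotation used here were found for 4 of the 6 members, and Tpsab1 and Tpsb2 had none. Each run ends at the base before the start. The run of Tpsg1 begins after the end of Tpsb2 and is therefore shorter, and the others have 250 bases. Capitals mark every match on either strand to the motifs TATAAA and TGACGT and to GATAA, chosen after the sequences had been read.
Prss34 (chr17:25298144-25298393): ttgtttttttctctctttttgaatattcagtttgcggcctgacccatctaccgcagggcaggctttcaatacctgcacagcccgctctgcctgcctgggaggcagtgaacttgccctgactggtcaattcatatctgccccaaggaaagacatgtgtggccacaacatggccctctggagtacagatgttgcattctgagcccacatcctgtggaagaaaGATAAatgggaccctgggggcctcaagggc
Prss28 (chr17:25308396-25308645): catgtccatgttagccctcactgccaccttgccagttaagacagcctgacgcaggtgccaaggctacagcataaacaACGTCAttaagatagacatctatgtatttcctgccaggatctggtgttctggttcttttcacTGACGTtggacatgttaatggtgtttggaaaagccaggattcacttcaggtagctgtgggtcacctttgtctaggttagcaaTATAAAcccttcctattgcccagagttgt
Prss29 (chr17:25318404-25318653): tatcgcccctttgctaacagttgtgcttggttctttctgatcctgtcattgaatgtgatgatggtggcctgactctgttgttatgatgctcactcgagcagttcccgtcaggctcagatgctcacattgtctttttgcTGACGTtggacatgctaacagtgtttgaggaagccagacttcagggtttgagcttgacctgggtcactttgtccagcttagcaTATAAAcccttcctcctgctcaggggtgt
Tpsg1 (chr17:25369099-25369272): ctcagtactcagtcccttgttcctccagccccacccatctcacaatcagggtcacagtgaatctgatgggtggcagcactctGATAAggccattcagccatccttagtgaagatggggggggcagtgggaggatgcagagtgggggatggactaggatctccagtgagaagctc
The promoters of Prss28 and Prss29 had TATAAA at the same place, bases -29 to -24, and TGACGT on the plus strand at -111 to -106 and -112 to -107. Prss28 also had TGACGT on the minus strand at -173 to -168. These 250 bases of Prss28 and Prss29 were 65.7% identical where aligned, and the longest run they shared was CTGACGTTGGACATG (15 bases). The other 5 pairs of promoters were 54.31% to 60.95% identical. For Tpsg1 these values were taken over 250 bases, which include bases inside Tpsb2 that are not printed. Of 32851 mouse promoters of the same length, 12.37% had TATAAA, 6.469% had TGACGT and 0.5723% had both. A forward TATAAA between 40 and 21 bases before the start was found in 1.866% of them. Prss34 and Tpsg1 each had GATAA, at -30 to -26 and -92 to -88, as had 22.58% of all promoters. A match is a string of letters and not a measured binding site.

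All 6 genes were at their highest in WT mTEChi, and they were low in the sums of the other sorts. In adult WT mTEChi, Prss29 was at 24.9, 0.250, 19.0 and 19.7 CPM in pools 1 to 4, and Prss34 was at 20.1, 0.125, 14.0 and 14.7 CPM. Prss28, the third of the Prss genes, was lower, at 4.54, 0.125, 2.53 and 2.58 CPM. For each of the 3 genes pool 2, the pool of 12 cells, was far below the others, which lay close together. Among the tryptase genes, Tpsb2 was at 9.06, 0.250, 14.2 and 11.2 CPM. Tpsg1 was at 5.93, 0, 8.52 and 10.2 CPM. Tpsab1 was at 3.45, 0, 1.11 and 8.24 CPM, so its 3 larger pools differed more among themselves than those of any other member. Over the 4 pools the mean ± SD was 15.9 ± 10.8 CPM for Prss29, 12.2 ± 8.50 for Prss34, 8.69 ± 6.01 for Tpsb2, 6.16 ± 4.46 for Tpsg1, 3.20 ± 3.66 for Tpsab1 and 2.44 ± 1.81 for Prss28. The ranges of mean ± SD overlapped between neighbours in this order, with the pool of 12 cells included in each SD. Pool by pool, Prss29 lay above Prss34 and Tpsb2 above Tpsg1 in all 4 pools. The other neighbours were tied or changed order in at least 1 pool. None of the 12 cells of pool 2 had 5 reads of a member, which allows a share of cells of up to 25.0%, so the absence from this pool is not detectable as a difference at its size.

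Per length, as RPKM (CPM per kilobase of exon) in the group sums, the order in adult WT mTEChi was Prss29 at 19.5, Prss34 at 15.001, Tpsb2 at 6.203, Tpsg1 at 4.78, Prss28 at 3.26 and Tpsab1 at 1.69. In newborn mTEChi it was Prss34 at 21.2, Prss29 at 18.2, Tpsb2 at 7.54, Tpsg1 at 6.92, Prss28 at 1.79 and Tpsab1 at 1.38. The first places were exchanged between the ages, which rested on 1 plate. Without plate 20 of the newborn cells Prss29 was at 13.4 and Prss34 at 11.97 RPKM, and the order was that of adult cells. Prss34, Prss28 and Prss29 together held 69.3% of the 31244 reads of the cluster in adult cells and 66.9% of the 7172 reads in newborn cells.

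**Figure D1:**
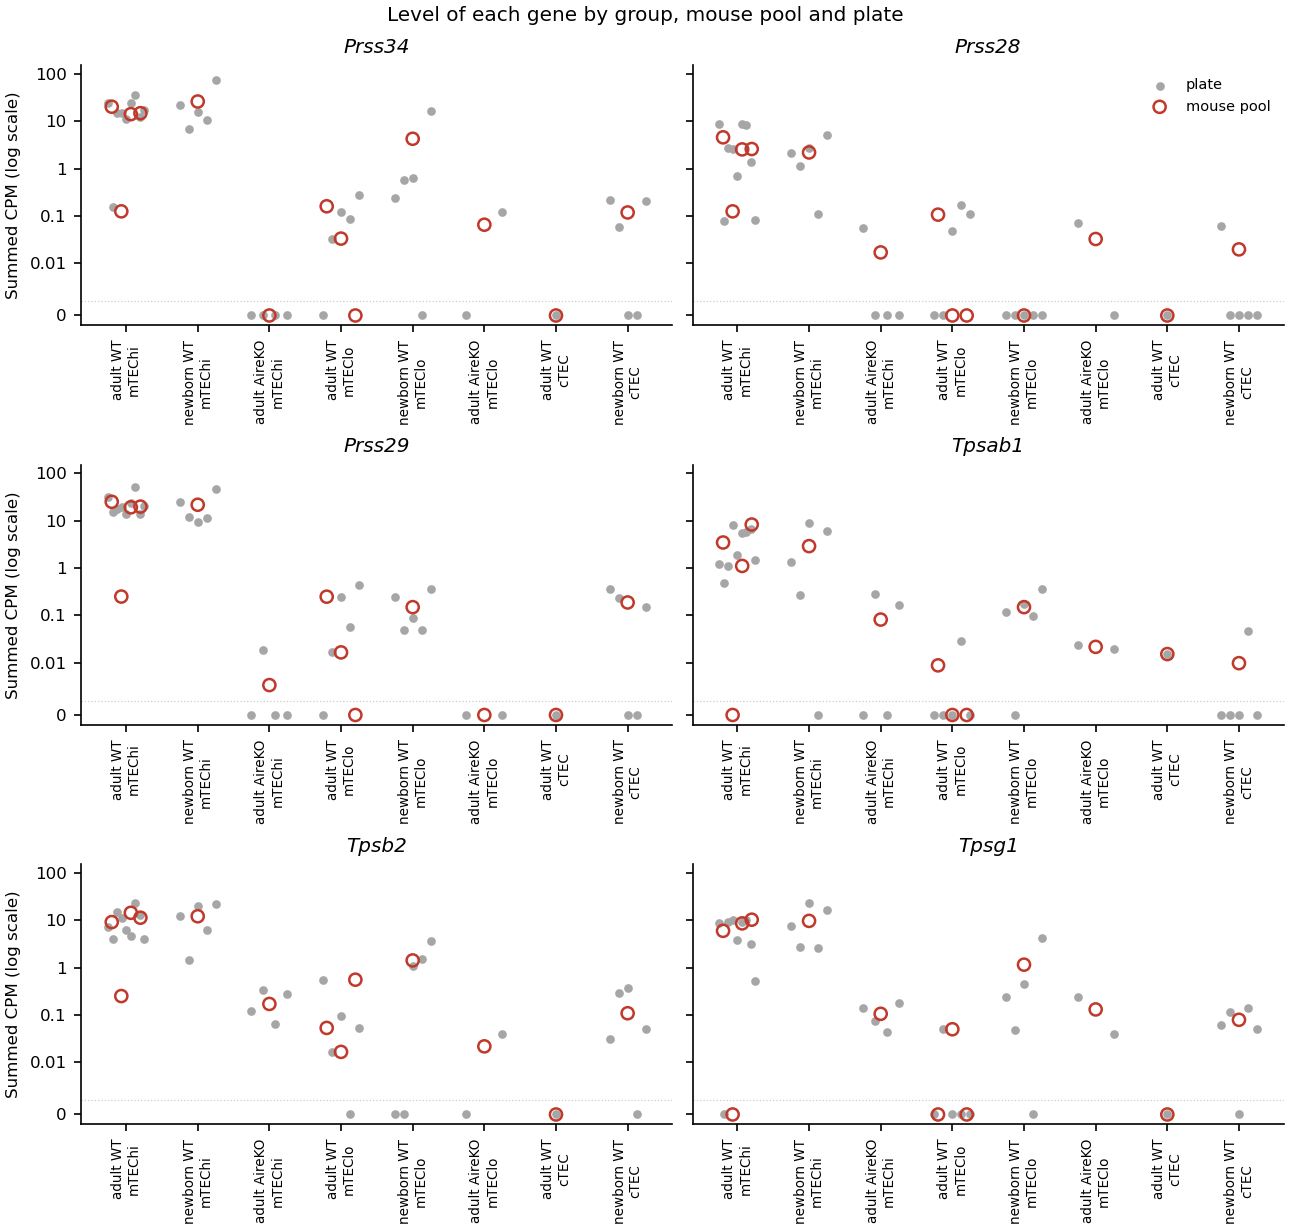
Level of each of the 6 protease genes in the 8 groups, as summed CPM on a log scale with 0 below the dotted line. Grey points are plates and red rings are mouse pools; apart from the adult pool of 12 cells (0 to 0.250 CPM), each ring of WT mTEChi lies above all rings of the other groups for every gene. Plates overlap: plate 20 of newborn mTEClo, with Prss34 at 16.1 CPM and Tpsg1 at 4.25 CPM, lies above several WT mTEChi plates.

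These sums came from a minority of cells with many reads each. A gene was counted as detected in a cell from 5 reads. Tpsb2 was detected in 71 of 620 adult WT mTEChi (11.5%, 95% exact binomial interval 9.05% to 14.2%), Prss29 in 65 (10.5%), Prss34 in 56 (9.03%), Tpsg1 in 44 (7.10%), Prss28 in 33 (5.32%) and Tpsab1 in 29 (4.68%). Intervals on cells and reads cover counting error only, since reads were deduplicated without molecular tags. A cell with the gene had a median of 77.5 reads of Prss34, 58 of Prss29, 43 of Tpsg1, 31 of Tpsb2, 27 of Tpsab1 and 21 of Prss28. The 5 cells with most reads held 32.3% of all Prss34 reads and 59.5% of all Prss28 reads. A gene thus ranked by its level and by its share of cells in different orders: Tpsb2 was in the most cells, Prss29 had the highest sum.

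Detection overlapped heavily between the genes. At least 1 member was detected in 18.1% of the 620 adult WT mTEChi (15.1% to 21.3%), and 44 of those cells had 1 member, 21 had 2, 16 had 3, 7 had 4, 8 had 5 and 16 had all 6. In newborn mTEChi 43 cells had a member (25.1% of the group, 18.8% to 32.3%), of which 18 had 1, 8 had 2, 6 had 3, 4 had 4, 3 had 5 and 4 had all 6. Cells with a pair or more of the genes made up 60.7% of the adult and 58.1% of the newborn cells with a member. Pools 1, 3 and 4 of adult WT mTEChi had a member in 18.5%, 17.1% and 19.5% of cells. The scarcer genes were nearly always found beside another: Prss28 was alone in 1 of 33 adult cells, Tpsab1 in 1 of 29 and Tpsg1 in 2 of 44. Tpsb2 was alone in 15 of 71, Prss29 in 14 of 65 and Prss34 in 11 of 56. In newborn cells Prss28 and Tpsab1 were alone in 0 of 8 and 0 of 10.

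Cells with more members also had more reads of the cluster. Adult cells with all 6 genes had a median of 993.6 CPM of the cluster (284.2 to 2493) and cells with 1 gene a median of 20.9 CPM (6.94 to 615.8). The 4 newborn cells with all 6 had a median of 1527.7 CPM (969.6 to 2699). Within the 16 adult cells with all 6 genes, Prss29 was the highest per length in 8, Prss34 in 5, Tpsg1 in 2 and Tpsb2 in 1. Median reads in these cells ran from 305.5 for Prss29 and 221.5 for Prss34 down to 30 for Prss28 and 27.5 for Tpsab1. A cell with few reads of the cluster can show fewer members because the rest fall under 5 reads, and the count of members is therefore tied to the level.

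**Figure D2:**
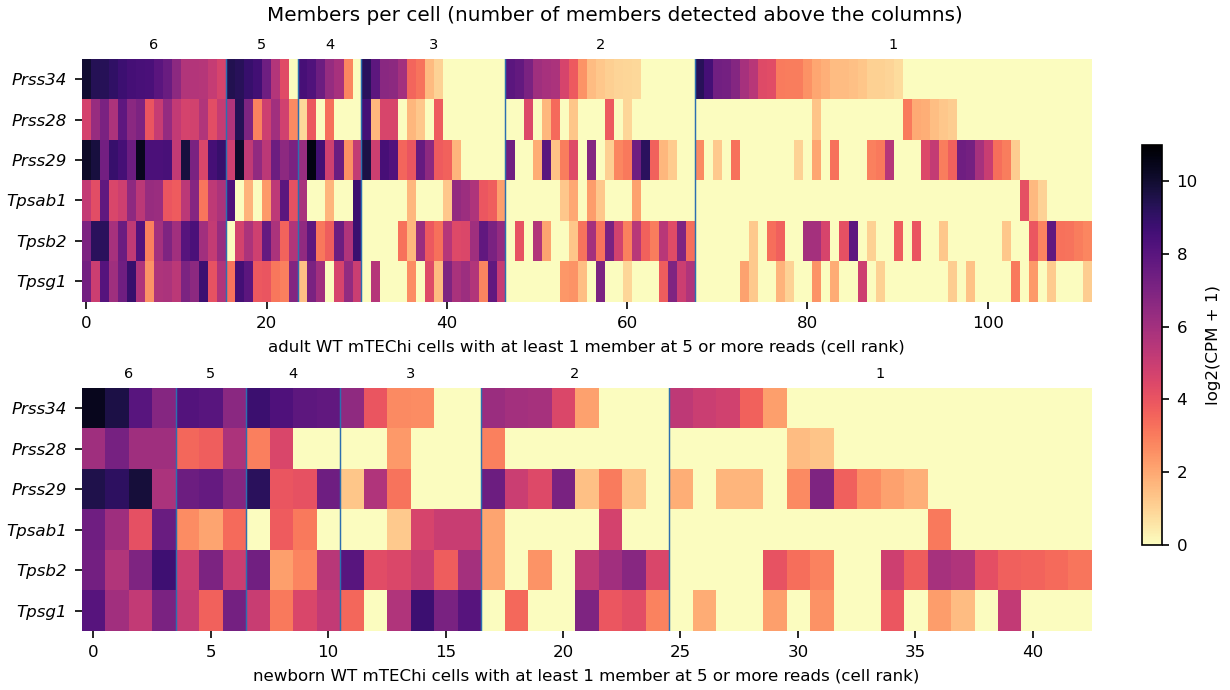
Level of the 6 genes, as log2(CPM + 1), in each adult (top) and newborn (bottom) WT mTEChi with a detected member; columns are cells, grouped by the number of members detected, written above. Dark columns on the left are the 16 adult and 4 newborn cells with all 6, and on the right are single-gene cells, of which most hold Prss34, Prss29 or Tpsb2.

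The genes could be detected in part as well as whole. In adult cells, 48 had a Prss gene and a tryptase gene, 35 had only Prss genes and 29 only tryptase genes. In newborn cells these numbers were 14, 11 and 18. Among the 16 adult cells with 3 members, 9 had 3 genes that follow each other on the chromosome, a layout that 4 of the 20 possible sets of 3 have. Among the 21 with 2 members, 7 had neighbouring genes, as have 5 of the 15 possible pairs. With 4 members such a run was found in 1 of 7 cells (3 of 15 sets) and with 5 members in 3 of 8 (2 of 6 sets). In newborn cells with 2, 3, 4 and 5 members it was found in 4 of 8, 3 of 6, 1 of 4 and 0 of 3. The sets count as equal although the genes were detected in 29 to 71 adult cells. Counts this small are a description of these cells.

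Correlation over adult cells followed the same division on the log2 scale, by a narrow margin. Pearson r of log2(CPM + 1) over the 620 adult WT mTEChi ran from 0.49 to 0.73 for the 15 pairs of members, with a median of 0.60. The 6 pairs within the Prss genes or within the tryptase genes gave 0.619 to 0.73. The 9 pairs of a Prss with a tryptase gene gave 0.49 to 0.617. Prss34 and Prss28 had the highest value (0.73) and Prss34 and Tpsab1 the lowest (0.49). Of the 15 pairs 8 were above 0.6, the study's limit for high correlation, with Prss28 and Tpsab1 just above it (0.601) and Prss29 and Tpsg1 just under it (0.594). In newborn cells r ran from 0.54 to 0.82, with 0.63 to 0.82 for the pairs within the 2 sets of genes and 0.54 to 0.73 for the pairs across them. The ranges overlapped there: Prss28 and Tpsab1, across the sets, had 0.73, and Tpsab1 and Tpsb2, within one, had 0.63. Prss34 and Prss29 were highest there (0.82), and 7 pairs were above 0.6. The points of each r are cells of the same libraries, most of them at 0 for both genes. The values depended on the scale: by Spearman's correlation, which ranks the many zeros as ties, the pairs gave 0.29 to 0.52 in adult and 0.41 to 0.66 in newborn cells, and 0 adult and 3 newborn pairs were above 0.6. Centring each gene on its plate left the adult values at 0.49 to 0.74.

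**Figure D3:**
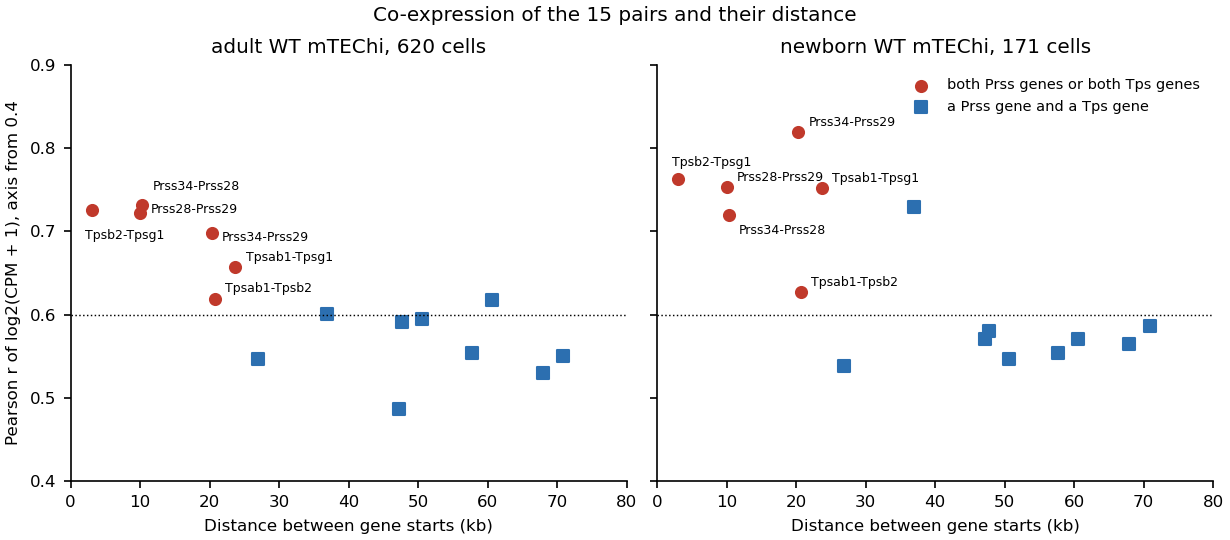
Pearson r of log2(CPM + 1) over cells against the distance between gene starts, for the 15 pairs in adult (left) and newborn (right) WT mTEChi; the vertical axis starts at 0.4 and the dotted line is r = 0.6. Red points, pairs within the Prss or within the tryptase genes, have starts 3.0 to 23.7 kb apart and lie above 0.6; blue squares, pairs of a Prss and a tryptase gene, lie 26.9 to 70.9 kb apart and mostly below it.

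Distance and division cannot be told apart in this layout, since the pairs within a set span 3.0 to 23.7 kb and those across span 26.9 to 70.9 kb. The nearest genes, Tpsb2 and Tpsg1 (0.174 kb between them), had r of 0.73 in adult and 0.76 in newborn cells, no higher than Prss34 and Prss29, which have Prss28 between them, in newborn cells. The closest pair across the division, Prss29 and Tpsab1, had 0.55 and 0.54. Tpsab1, the only gene on the minus strand, had r of 0.66 and 0.75 with Tpsg1.

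Genes beyond the ends of the cluster had lower r with the members, far lower in adult cells and less sharply so in newborn cells. Co-expression in these cells had chosen the members, so this contrast was favoured in advance and sets no border. Of 63 other genes within 500 kb, 54 had 5 reads in at least 5 adult WT mTEChi, and their median r with the members had a median of -0.02. The highest value outside the span was 0.16, for Tekt4 (a ciliary tektin), 80173 bases beyond Tpsg1. In newborn cells Tekt4 had 0.36 and Sstr5, a somatostatin receptor 115433 bases beyond Tpsg1, had 0.24, against 0.01 for Sstr5 in adult cells; Sstr5 was named after its values had been seen. Cacna1h, which overlaps the end of Tpsg1, had 0.17 in adult and 0.22 in newborn cells. Inside the span, the unprocessed pseudogene AC122454.1 (25330692 to 25332675), between Prss29 and Tpsab1, behaved like a member in these cells: it had a median r of 0.58 in adult and 0.51 in newborn cells, was detected in 13 adult cells and had no read in Aire-KO mTEChi. Its transcript was 80.7% identical to that of Prss29, and 8 of its windows of 50 bases (0.957%) were also in Prss29. The processed pseudogene Gm5430 beside it had 0.25 and 0.10. The small nucleolar RNA gene Gm25921, between Prss34 and Prss28, had 0.41 and 0.42, with 5 reads in 1 adult cell.

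**Figure D4:**
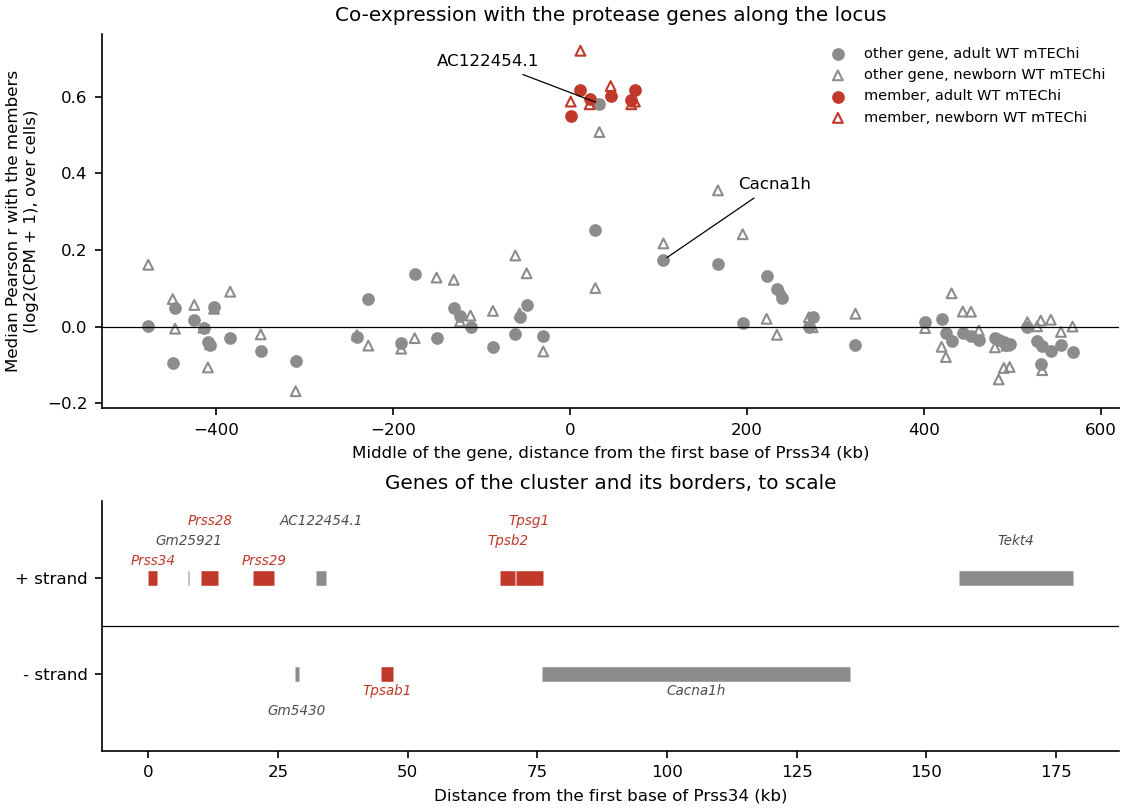
Median Pearson r of each gene within 500 kb with the 6 members (top; circles adult, triangles newborn WT mTEChi; red, the members with each other) by distance from the first base of Prss34, and the gene map of the cluster to scale (bottom). Adult r is 0.55 to 0.62 for the members and 0.58 for AC122454.1, and it is 0.17 at Cacna1h.

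Across the genome no gene was closer to a member than the genes of the cluster. Co-expression in adult cells had chosen the members, so their rank was favoured in advance and is a description only. Among 29546 genes with 5 reads in at least 5 adult WT mTEChi, the 6 most correlated with each member were the other 5 members and AC122454.1. The seventh ranked gene had r of 0.32 for Prss34 (Uox, urate oxidase, on chromosome 3), 0.30 for Prss29 (Iqsec3, chromosome 6) and 0.33 for Tpsab1 (Pcsk2os2, chromosome 2). For Prss28, Tpsb2 and Tpsg1 it was the same antisense RNA gene, 0710001A04Rik, with 0.35, 0.30 and 0.40, detected in 8 adult cells. In newborn cells r was 0.10 with Prss34 for Uox, 0.08 with Prss29 for Iqsec3 and 0.04 with Tpsab1 for Pcsk2os2. These genes were picked on their adult values alone, whereas co-expression at both ages chose the members, so the newborn values of genes and members cannot be set against each other.

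Aire-KO mTEChi had the cluster at 0.379 CPM in all, against 65.41 CPM (31244 reads) in adult WT mTEChi. Prss34 had no read. A floor of 3 reads over the Aire-KO group gives a ratio of 1787.1, with reads taken as independent. Reads came many to a cell, with a median of 77.5 in WT cells with Prss34, so this ratio is no lower bound. By cells, Prss34 was detected in 0% of Aire-KO mTEChi, which allows up to 0.888%, against 9.03% in WT. Prss29 had 1 read and a ratio of 6758 (95% counting interval 1212.7 to 266961), and Prss28 had 5 reads and a ratio of 232.9 (99.6 to 718.2). By read sums the tryptase genes kept more: Tpsb2 had 50 reads, at a ratio of 57.9 (43.9 to 78.2). Tpsg1 had 31 reads and a ratio of 62.7 (44.1 to 92.5), and Tpsab1 had 24 reads and a ratio of 43.2 (28.9 to 67.6). The Prss genes made up 5.41% of the reads of the cluster in Aire-KO mTEChi (exact interval 2.01% to 11.4%) and 69.3% in WT. This interval and those of the ratios take reads as independent and are too narrow. The reads of the cluster in Aire-KO mTEChi came from 20 cells, and all 24 of Tpsab1 from 3 cells. Whether the lower Prss share holds beyond these few cells was not tested. Aire-KO mTEChi were a single pool and this contrast chose the genes, so these values carry no test.

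A member was detected in 5 Aire-KO mTEChi (1.48%, 0.482% to 3.42%), and a Prss gene in 0, which allows a share of up to 0.888%. Tpsb2 was detected in 4 cells, Tpsab1 in 2 and Tpsg1 in 1. In 1 of these cells Tpsb2 (9 reads) was found with Tpsg1 (11 reads), and in another Tpsab1 (14 reads) with Tpsb2 (18 reads). The first had no Aire read and the second had 64.5 CPM of Aire. Over the 4 Aire-KO plates Tpsb2 ranged from 0.0643 to 0.338 CPM and had a cell on every plate, and r of Tpsb2 and Tpsg1 was 0.68 with 1 cell that held both.

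In mTEClo the genes were close to the limit of counting. Adult WT mTEClo pools 1 to 3 had Prss34 at 0.160, 0.0333 and 0 CPM, Prss29 at 0.249, 0.0167 and 0 CPM, and Prss28 at 0.107, 0 and 0 CPM. Tpsb2 was at 0.0533, 0.0167 and 0.554 CPM, with 26 of its 33 reads in 1 cell of pool 3. Tpsab1 had 1 read and Tpsg1 had 3 reads in all cells of the group. Pool 1, of 8-week-old mice, was the highest of the 3 for each Prss gene and pool 3, of 4-week-old mice, for Tpsb2.

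Against mTEClo, all 6 genes were higher in the sums of adult WT mTEChi, whose values had chosen them, and several entered the test only through their mTEChi reads. As a description, 4 of the 6 were called higher in adult WT mTEChi by edgeR's quasi-likelihood test (Benjamini-Hochberg adjusted p under 0.05 and at least 2-fold), and 0 were called lower. Of the 39971 genes tested, 7.54% were called higher and 4.13% lower. The log2 fold change (± SE) was 9.06 ± 2.06 for Tpsab1, 8.40 ± 2.01 for Tpsg1, 7.13 ± 1.72 for Prss34 and 7.05 ± 1.80 for Prss29. Prss28, at 5.59 ± 1.65, and Tpsb2, at 5.29 ± 1.56, were not called. In a fit blocked on the pools' age and sex, Prss29 was the 1 member called, and Tpsg1 was at 4.99 ± 2.73. The mTEChi and mTEClo pools share only the labels of 4-week and 5-week males, the latter being the mTEChi pool of 12 cells. This fit therefore has fewer residual degrees of freedom and is a weak check. DESeq2 called all 6. The fitted folds of Tpsab1 and Tpsg1 rest on 1 and 3 mTEClo reads. From the read sums alone their ratios were 775.9 (counting interval 139.07 to 30663) and 485.6 (165.997 to 2356), with reads taken as independent. Those of the others were 65.7 for Tpsb2, 72.7 for Prss28, 174.6 for Prss29 and 200.8 for Prss34. Every mTEChi pool lay above every mTEClo pool for 2 members, Prss28 and Prss29, where 16.1% of all genes tested did so, and in both the lowest mTEChi pool was pool 2 with 1 or 2 reads. The calls turned on single pools: without pool 2 of mTEChi all 6 were called, and without pool 1 or 4 of mTEChi or pool 2 or 3 of mTEClo none was. Leaving out pool 3 of mTEChi left 1 called and pool 1 of mTEClo 3. The fold stayed above 0 in all of these fits.

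Read sums of a sort cannot tell fewer cells with a gene from fewer reads per cell, but the cells can be counted. A member was detected in 3 adult WT mTEClo (0.840%, 0.174% to 2.44%), against 18.1% of mTEChi. The 3 cells had 6, 20 and 26 reads of the cluster, or 13.2 to 36.6 CPM, below the median of 149.4 CPM in mTEChi with a member. The cell with 20 had Prss34 (7 reads) and Prss29 (13 reads) together and 12.8 CPM of Aire. The only other detections were Prss28 in 1 cell and Tpsb2 in 1 cell.

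Newborn mTEChi were set beside adult mTEChi as a description. Expression in mTEChi of both ages had chosen the genes, so similar levels were favoured in advance and support nothing about the members. Newborn CPM were 25.8 for Prss34, 2.18 for Prss28, 21.5 for Prss29, 2.89 for Tpsab1, 12.02 for Tpsb2 and 9.61 for Tpsg1, above all adult pools for Prss34 and within their range for the others. For Prss28 that range reaches down only through the pool of 12 cells, and the newborn value lay below the 3 larger pools. The log2 fold changes of newborn over adult cells were 1.11 for Prss34, 0.66 for Tpsg1, 0.49 for Tpsb2, 0.46 for Prss29, -0.14 for Tpsab1 and -0.15 for Prss28, with SE of 1.66 to 1.86. None was called by edgeR, which called 0% of all genes in either direction. With an unadjusted p under 0.05 came 1.51% of genes as higher and 0.503% as lower, and DESeq2 called 12 and 23 genes and no member. Differences of this size were not detectable with 1 newborn pool. The 5 newborn plates were uneven. Prss34 lay between 6.65 and 22.1 CPM on 4 of them and at 74.7 CPM on plate 20, and without that plate its newborn level was 14.6 CPM. Prss29 was at 15.8 CPM without plate 20.

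Newborn mTEClo appeared to differ from adult mTEClo, and a single cell carried most of it. Prss34 was at 4.23 CPM, Tpsb2 at 1.41, Tpsg1 at 1.15, Prss29 and Tpsab1 at 0.150 each and Prss28 at 0. A cell of plate 20 had Prss34 at 439.4 CPM, Tpsg1 at 114.7 CPM (83 reads), Tpsb2 at 96.7 CPM (70 reads), Tpsab1 at 9.67 CPM (7 reads) and Prss29 at 8.29 CPM (6 reads), 5 of the 6 genes, with 66.3 CPM of Aire. Without it, Prss34 was at 0.265 CPM, Tpsb2 at 0.542, Tpsg1 at 0.113, Prss29 at 0.0756 and Tpsab1 at 0.0630. In the test against adult mTEClo no member was called by edgeR, with a log2 fold change of 5.71 ± 1.80 for Prss34 (adjusted p by edgeR 0.3505) and 6.08 ± 2.07 for Tpsg1 (0.386). It called 0% of all genes in either direction. The unadjusted p was under 0.05 for 5.62% of genes as higher and 4.32% as lower, and DESeq2 called 2.07% and 2.55% of genes and no member. With plates in place of pools, which are technical units, Prss34, Tpsb2 and Tpsg1 were called. Altogether a member was detected in 5 newborn mTEClo (4.03%, 1.32% to 9.16%). Prss28 passed the filter on low counts through its mTEChi reads and not through mTEClo of either age.

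The age effect was not shown to differ between mTEChi and mTEClo, in a comparison that uses the mTEChi levels that chose the genes. The interaction term was -4.60 ± 2.84 for Prss34, -5.42 ± 3.18 for Tpsg1, -4.88 ± 3.12 for Tpsab1, -2.28 ± 2.66 for Tpsb2, 5.32 ± 4.34 for Prss28 and 0.03 ± 3.14 for Prss29 on the log2 scale, and edgeR called no member and 0% of all genes. Before adjustment, 2.10% of genes were higher and 1.71% lower with p under 0.05, and DESeq2 called 0.297% and 0.335% of genes and no member. The newborn mTEClo levels in these terms came mostly from the cell with 5 members. Without it Prss34 fell from 4.23 to 0.265 CPM and Tpsg1 from 1.15 to 0.113 CPM. Prss28 had 0 reads in newborn mTEClo, so its term is no bound, and Tpsab1 had 1 read in adult WT mTEClo.

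Aire-KO and WT mTEClo were compared as a contrast that did not choose the genes. The filter on low counts was set over all mTEC pools, however. Prss28 and Tpsab1 passed it through other groups, so their values here support nothing. Aire-KO mTEClo had 25 reads of the cluster in all, with 12 of Tpsg1, 6 of Prss34, 3 of Prss28, 2 each of Tpsab1 and Tpsb2 and 0 of Prss29. The log2 fold changes of Aire-KO over WT mTEClo were 3.06 ± 2.16 for Tpsg1, 2.11 ± 2.605 for Tpsab1, -0.19 ± 2.10 for Prss34, -0.39 ± 2.20 for Prss28, -3.08 ± 2.51 for Tpsb2 and -6.71 ± 4.41 for Prss29. No member and 0% of all genes were called by edgeR. Unadjusted, 2.14% of genes were higher and 1.41% lower with p under 0.05, and DESeq2 called 0.219% and 0.4656% of genes and no member. At this depth a difference was not detectable. The signs went both ways, and the value for Prss29, with 0 reads in Aire-KO mTEClo, is no bound on a fold.

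Cortical cells had almost none of the genes. In adult WT cTECs 0 of 77 cells had a member detected, which allows a share of up to 3.90%, and 1 read of Tpsab1 was the only read of the cluster. In newborn cTECs 1 cell had a member, Prss29 at 7 reads, and the cluster had 53 reads spread over 25 cells.

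Within WT mTEChi, cells with a member were near other cells in depth, and their Aire levels overlapped widely. In adult cells the median depth was 786536 reads with a member and 768336 without, and 5 reads of Aire were found in 99.1% of cells with a member and 98.6% without. Median Aire was 902.9 CPM in the 65 cells with 1 or 2 members, 1503.9 CPM in the 47 with 3 or more and 1004.3 CPM in those with none. Within pool 1 the last 2 values were 1395.6 and 883.3 CPM, in pool 3 they were 869.4 and 861.4 CPM, and in pool 4 1999.6 and 1659.1 CPM. In newborn cells they were 1539.03 CPM with 3 or more members and 1623.9 CPM with none, in the opposite order. Over cells, r with Aire was 0.08 to 0.10 for the members in adult and 0.01 to 0.09 in newborn cells. When adult cells were cut into 4 equal parts by Aire, the share with a member was 16.8%, 15.5%, 20.6% and 19.4% from the lowest to the highest part. The newborn shares were 27.9% in the lower 3 parts and 16.7% in the highest.

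**Figure D5:**
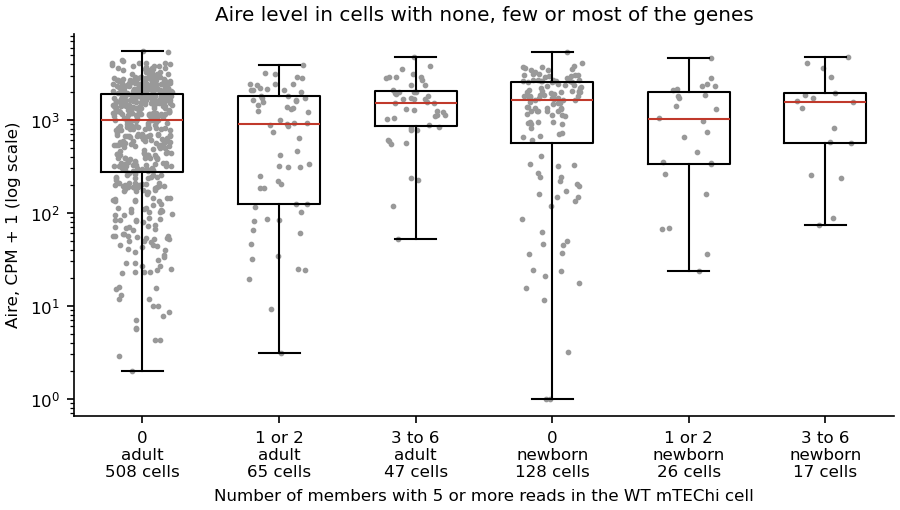
Aire level, as CPM + 1 on a log scale, of adult and newborn WT mTEChi with 0, 1 or 2, and 3 to 6 members detected; points are cells, boxes are quartiles with the median in red and whiskers reach the lowest and highest cell. The adult medians are 1004.3, 902.9 and 1503.9 CPM and the newborn medians 1623.9, 1008.2 and 1539.03 CPM, with wide overlap between all of them.

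Because the tryptases and Prss34 are known from mast cells and basophils, markers of those cells were read beside them. In adult WT mTEChi, 7 of 10 mast cell markers and 3 of 6 basophil markers were higher in the sum of cells with a member than of cells without. Mcpt4, a mast cell chymase, was at 23.9 against 2.70 CPM (5 reads in 8.04% and 1.77% of cells), and Mcpt8, a basophil protease, at 8.61 against 0.422 CPM (7 and 3 cells). Cpa3, the mast cell carboxypeptidase, was at 4.30 against 0.927 CPM, and Ms4a2, a chain of the IgE receptor, at 11.3 against 4.32 CPM. Of the basophil list, the transcription factor gene Gata2 was at 1.40 against 9.53 CPM, Cd200r3 at 0.510 against 1.41 CPM and the cytokine gene Il4 at 5.54 against 6.58 CPM. Kit, the stem cell factor receptor, was lower in cells with a member, at 108.6 against 168.3 CPM, and Mrgprb1 was at 0. The summed mast cell list ranged over cells from 0 to 3489 CPM with a member and 0 to 5374 CPM without, mostly from Hdc, at 868.8 and 829.8 CPM. The basophil list ranged from 0 to 585.2 and 0 to 1649.07 CPM. In newborn mTEChi 1 of 10 mast cell and 0 of 6 basophil markers were higher by CPM with a member, and Cpa3 and Ms4a2 were at 0 CPM in those 43 cells. The 1 was Mrgprb1, at 0.0410 against 0.0138 CPM and detected in 0 cells. By share of newborn cells, Kit (95.3% and 84.4%), Cma1 (18.6% and 7.03%), Hdc and Mcpt4 were higher with a member. Cpa3, Fcer1a, Ms4a2, Mrgprb2 and Il1rl1 were lower. In adult cells the shares were 11.6% and 3.74% for Cma1 and 36.6% and 17.3% for Il1rl1, but 68.8% and 73.2% for Kit. Of 5 haematopoietic genes 3 were higher with a member at each age, with the CD45 gene Ptprc at 27.1 against 18.8 CPM in adult and 19.002 against 22.95 CPM in newborn cells. Ptprc was detected in 15.2% of adult cells with a member and 6.30% without, and in 13.95% and 7.81% of newborn cells. For Tyrobp, another haematopoietic gene, the shares were 17.9% and 7.48% in adult and 16.3% and 5.47% in newborn cells. Cd52 was also detected more often with a member at both ages, Coro1a and Laptm5 in adult cells only. Epcam and Krt8, the epithelial markers, were detected in 100% of the adult and of the newborn cells with a member. Without a member each was detected in 99.8% of adult and 100% of newborn cells. Krt5, a keratin of basal epithelium, was at 66.1 CPM in adult cells with a member and 103.6 CPM without one (detected in 69.6% and 63.4% of cells), and at 80.2 and 304.3 CPM in newborn cells (67.4% and 86.7%). The part of these markers in the co-expression was not tested.

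The cluster was set against the rest of its family, 57 other genes named Prss, Tmprss, Try or Tps, a list chosen by symbol with earlier results known. In adult WT mTEChi against mTEClo, 10 of the 56 tested were called higher and 0 lower by edgeR, where 7.54% of all genes were called higher and 4.13% lower. Without adjustment, 28 (50.0%) had p under 0.05, against 34.6% of all genes. The median log2 fold change was 2.46 for the list and 0.30 for all genes. The largest folds among those called were of Prss51, at 0 to 2.16 CPM in the mTEChi pools (adjusted p by edgeR 0.0389), and of the trypsinogen Try5, at 0.125 to 2.07 CPM (adjusted p by edgeR 0.0216). Each was at 0 in all 3 mTEClo pools, so the fitted fold is no bound. No gene of the list was called by edgeR in the other 4 comparisons. Unadjusted p was under 0.05 for 3.57% of the list and 2.01% of all genes in newborn against adult mTEChi, 16.1% and 9.93% in newborn against adult mTEClo, 7.14% and 3.55% in mTEClo by Aire genotype, and 8.93% and 3.81% for the interaction. A gene of the list was detected in a median of 2.58% of adult WT mTEChi and 1.78% of Aire-KO mTEChi.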

How the data were processed

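Single TECs were sorted into 96-well plates and profiled by RamDA-seq, 1980 cells in 2148 sequencing samples, since 168 cells were sequenced in 2 runs and have 1 column each. The authors deposited whole-number counts per Ensembl gene: reads were trimmed to 50 bp where necessary, cleaned with fastp 0.20.0, mapped to mm10 with STAR 2.7.3a, filtered at MAPQ 5 with SAMtools 1.9, deduplicated with Picard 2.21.1 and counted without strand by HTSeq 0.11.2. Cells with over 200000 reads were kept by the authors. A second deposited table of length-scaled values was not used here. Names and positions came from GENCODE M21 (48263 of 48437 genes matched) and sequences from RefSeq.

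The members, gene lists and alternatives were chosen with earlier results of these data known. Counts were summed over 11 mTEC pools of 6 groups and tested 2-sided with edgeR 4.0.16 (R 4.3.3): quasi-likelihood test, TMM scaling, filter on low counts, 39971 genes, Benjamini-Hochberg adjustment over all of them, 5 residual degrees of freedom. Groups of 1 pool were assumed to vary like the others. Alternatives were DESeq2 1.42.0, its size factors, limma 3.58.1 on mean log2(CPM + 1), no filter, cells thinned to 200000 reads, plates as units, age and sex as a block, and leaving out each pool. Leaving out plate 39, plate 20, the mTEClo cell with 5 members, or the 12-cell and 8-week pools together was added after seeing the data. Named genes were the members, neighbours within 100 kb, for each member the genes with the highest r, and the largest 2 folds of called genes of the protease list. Cell, read and pool numbers set the precision, and intervals are exact at 95%. Not all neighbours within 100 kb are reported here.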

Additional observations from a re-analysis of the deposited data

Results flagged for a closer look

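Each of the 6 genes was looked at over the 4 to 9 plates of a group and over the 4 adult WT mTEChi pools. A plate or pool was flagged where its gap to the next is large against the range of all (Dixon's 95% critical value). Chance alone would flag about 5% of such sets. Of 40 sets of plates or pools, 11 were flagged, each for a plate and none for a pool. Values near the limit of counting flag easily, because 1 plate with a few reads stands against plates at 0.

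Plate 39 of adult WT mTEChi had Prss29 at 50.7 CPM, with the next of 9 plates at 31.8 CPM; without it the mean over pools was 14.9 in place of 15.9 CPM. Plate 20, a plate of newborn cells, was flagged for 3 values: Prss34 at 74.7 CPM in mTEChi (next plate 22.1), Prss34 at 16.1 CPM in mTEClo (next 0.626) and Tpsg1 at 4.25 CPM in mTEClo (next 0.447). The mTEClo values of plate 20 come mostly from the single cell with 5 members.

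The other flagged plates had few reads. In Aire-KO mTEChi they were Prss28 at 0.0546 CPM on plate 7 and Prss29 at 0.0188 CPM on plate 8, each against 0 on the other plates. In adult WT mTEClo they were Tpsb2 at 0.554 CPM on plate 2, Tpsg1 at 0.05002 CPM on plate 5 and Tpsab1 at 0.0289 CPM on plate 33. In newborn cTECs they were Prss28 at 0.0615 CPM on plate 16 and Tpsab1 at 0.0470 CPM on plate 19.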

How the results depend on the processing

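In adult WT mTEChi against mTEClo, the log2 fold changes of the 6 genes were above 0 in 90 of 90 alternative values (0.25 to 12.5), whereas the number called depended on the setting. It was 4 in the test reported, 6 by DESeq2, over plates and with thinned cells, 1 with age and sex as a block and 0 by limma with cells of equal weight, where Prss28, Prss29 and Tpsb2 passed the adjusted p but not the 2-fold limit, and from 0 to 6 when 1 pool was left out. Genes called in that comparison were 4663 in the test reported, 12960 over plates, 9947 by DESeq2, 3061 by limma and 3002 with the block. For newborn against adult mTEClo, 3 members were called over plates and 2 without the adult mTEChi pool of 12 cells and the 8-week mTEClo pool, in place of 0. Over that comparison's other settings the number stayed at 0.

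Adult WT mTEChi with a pair or more of the genes made up 11.0% of the group, and 24.8% when 1 read counted as detection. Pairs with r over 0.6 were 8 in adult cells, 0 by Spearman's correlation, 1 on the CPM scale and 5 to 9 without 1 pool; in newborn cells they were 7, and 3 by Spearman's correlation.

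Signs turned in 28 alternative values, of differences that no test had called. For newborn over adult mTEChi these were Prss28 (0.028 thinned, 0.33 without adult pool 1, 0.062 by limma), Tpsab1 (0.11 thinned, 0.93 without adult pool 4, 0.13 by limma) and Prss29 (-0.12 over plates). For newborn over adult mTEClo, Prss29 turned to -0.12 over plates, -0.04 without pool 2 and -0.084 without pool 3, within a range of -0.084 to 3.87 when 1 pool was left out. For Aire-KO over WT mTEClo, Prss34 turned to 1.88 without the 8-week pool and 1.82 without it and the pool of 12 cells, and Prss28 to 5.10, 5.14 and, by limma, 0.0045. Their lowest values without 1 pool were -0.69 and -0.92. For the interaction, limma gave 0.36 for Prss34, 0.053 for Tpsab1, 0.36 for Tpsb2 and 0.31 for Tpsg1. Prss28 turned to -0.15 without the 8-week pool and -0.57 without that and the pool of 12 cells, and reached 5.92 at the highest without 1 pool. Prss29, at 0.03, turned to -0.041 with DESeq2 size factors, -0.050 with no filter, -0.00049 over plates, -0.44 without the pool of 12 cells, -3.41 without the 8-week pool, -3.83 without the pair of pools and -0.13 by DESeq2, with 0.54 at the highest without 1 pool. The cause was not tested. Groups of 1 pool and genes with few reads in a group limit these comparisons, as do the pool of 12 cells and the 8-week pool.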
